A study of Mus musculus with 9 samples.

Results

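The genes described here are 10 antioxidant and NRF2 target genes, namely Sod1, Sod2, Sod3, Cat, Nqo1, Gclc, Gclm, Txnrd1, Srxn1 and Hmox1. They were taken by symbol from the 19935 genes that the array measured with a probe set of a single gene symbol, and each of the 10 had 1 such probe set. Levels were measured in NIH 3T3 cells, an established mouse fibroblast line, in 3 groups of 3 biological replicates with 1 Affymetrix Mouse Gene 1.0 ST array each. The first group stably carried an shRNA against Net (gene Elk3), the second an shRNA against Sap-1 (gene Elk4), and the third the empty vector pLKO.1, and the first and second are called Net knockdown and Sap-1 knockdown cells. All 3 groups were plated on fibronectin for 2 hours, starved of serum overnight and given bovine serum for 1 hour before lysis. The sample protocols give the serum as 10% and the series text as 20%. Every array was taken after serum, so no unstimulated level is known. The labels do not say how many independently transduced lines a group holds, so the p-values measure the spread between these replicates, which may not cover differences between lines.

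NRF2, the product of Nfe2l2, is a transcription factor that KEAP1 binds and hands to a CUL3 ubiquitin ligase for degradation. When oxidants or electrophiles modify KEAP1, NRF2 escapes, pairs with a small MAF protein and binds antioxidant response elements, DNA sites that the repressor BACH1 can also occupy. Its classical targets make glutathione, reduce thioredoxin and peroxiredoxins, reduce quinones and break down haem, while superoxide dismutases and catalase remove superoxide and hydrogen peroxide and are under several other controls as well. Net and Sap-1 are ternary complex factors, ETS proteins that act with serum response factor at serum-induced genes.

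The targeted genes were lower under their own shRNA. Elk3 averaged 11.08 in Net knockdown cells and 11.51 in empty vector cells on the log2 scale, a difference of -0.42 (SE 0.04, limma adjusted p = 1.1e-05). Elk4 averaged 9.53 in Sap-1 knockdown cells and 11.07 in empty vector cells (-1.54, SE 0.04, adjusted p = 9.2e-10). Elk4 was also lower in Net knockdown cells, at -0.44 against the empty vector (adjusted p = 2.3e-05), and at -0.28 with the median deviation of its chromosomal neighbours taken off. The Net knockdown group thus differs from control in both factors at the mRNA level. Before that subtraction the changes were of like size, -25.5% for Elk3 and -26.4% for Elk4. The value after subtraction is given for Elk4 only. Elk3 differed by -0.12 in Sap-1 knockdown cells (adjusted p = 0.023), a call lost without Sap-1 knockdown replicate 1 or empty vector replicate 2 or 3 (adjusted p = 0.064 to 0.071), and after median centring of the arrays (-0.11, adjusted p = 0.059). Arrays of a group correlated at 0.9981 to 0.9992 over all probe sets. The 10 fibroblast markers had mean levels of 12.73 to 12.78 in Net knockdown arrays, 12.53 to 12.55 in Sap-1 knockdown arrays and 12.79 to 12.83 in empty vector arrays. Against the empty vector 1 of these markers was higher, 3 lower and 6 not called in Net knockdown cells. In Sap-1 knockdown cells 1 was higher, 4 lower and 5 not called. Among genes at or above the median level, 47.4% were called in Net knockdown and 54.5% in Sap-1 knockdown cells. The largest difference among the 10 fibroblast markers was that of Pdgfra in Sap-1 knockdown cells (-1.74, adjusted p = 4.2e-09).

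Promoter windows, from 250 bases before to 50 bases after the annotated start, were given for 7 of the 10 genes in RefSeq tables of build GRCm38.p6, in 9 windows. They were searched on both strands for the core of the antioxidant response element, TGACNNNGC, and for the AP-1 site TGANTCA, which the element resembles. The element core was found in 4 windows, those of Txnrd1 (chr10:82858956-82859255, plus strand), Srxn1 (chr2:152105274-152105573, plus strand), Gclm (chr3:122245307-122245606, plus strand) and Sod1 (chr16:90220512-90220811, plus strand). All 4 matches lie on the strand opposite to the gene and therefore read GCNNNGTCA below. These windows are shown because they set 2 genes whose level changed, Txnrd1 and Srxn1, beside 2 that passed no test, Gclm and Sod1. Capitals mark the matches, and the window of Srxn1 also holds 2 AP-1 matches, both reading TGAGTCA and overlapping no match of TGACNNNGC. Other forms of the element were not searched, so an overlap with such a form is not excluded.
Txnrd1 promoter window: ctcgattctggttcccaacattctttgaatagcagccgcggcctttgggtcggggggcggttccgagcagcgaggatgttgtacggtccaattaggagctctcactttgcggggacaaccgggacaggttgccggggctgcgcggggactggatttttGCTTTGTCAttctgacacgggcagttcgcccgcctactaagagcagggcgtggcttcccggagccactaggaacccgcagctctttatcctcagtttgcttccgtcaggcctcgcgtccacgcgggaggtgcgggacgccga
Srxn1 promoter window: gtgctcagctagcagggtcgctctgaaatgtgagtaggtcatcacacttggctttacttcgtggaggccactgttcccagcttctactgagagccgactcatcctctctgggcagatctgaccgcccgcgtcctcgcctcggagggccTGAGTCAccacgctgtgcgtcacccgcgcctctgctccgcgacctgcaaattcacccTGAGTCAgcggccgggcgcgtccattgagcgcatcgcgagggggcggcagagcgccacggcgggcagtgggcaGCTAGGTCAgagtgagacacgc
Gclm promoter window: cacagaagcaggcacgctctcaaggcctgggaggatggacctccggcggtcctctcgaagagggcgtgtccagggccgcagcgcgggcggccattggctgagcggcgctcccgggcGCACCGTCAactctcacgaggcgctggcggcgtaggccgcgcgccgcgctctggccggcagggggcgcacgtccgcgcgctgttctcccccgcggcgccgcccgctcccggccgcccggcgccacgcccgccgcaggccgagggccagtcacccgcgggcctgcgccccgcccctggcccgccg
Sod1 promoter window: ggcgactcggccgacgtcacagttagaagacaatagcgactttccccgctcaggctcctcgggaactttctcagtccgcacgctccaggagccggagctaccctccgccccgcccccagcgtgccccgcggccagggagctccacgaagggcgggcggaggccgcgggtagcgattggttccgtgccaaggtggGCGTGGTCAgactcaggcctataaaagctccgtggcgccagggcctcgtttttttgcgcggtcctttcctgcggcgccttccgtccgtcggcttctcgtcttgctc

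Of 32851 promoter windows of the same length, 12.4% held the element core and 7.81% the AP-1 site. The match in Txnrd1 began at base -92, counted from the start, in 1 of the gene's 3 windows, that in Gclm at -134 and that in Sod1 at -56. In Srxn1 the match began at base 29 after the start and the AP-1 letters at -102 and -45. A match of letters is no evidence of binding, and known elements of several of these genes lie farther upstream than these windows reach. The windows of Sod2, Cat and Nqo1 held neither motif, which says only that the letters are not in these stretches. Both genes that passed no test hold a match, and so do Txnrd1 and Srxn1, which changed. Sod3, Gclc and Hmox1, which also changed, had no window given and were not searched.

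Against the empty vector, Sap-1 knockdown cells had higher levels of 7 of the 10 genes and a lower level of 1, and Net knockdown cells had higher levels of 2 and lower levels of 2. Sod3 and Hmox1 were higher in both knockdowns, Srxn1 was lower in both, and Txnrd1 went opposite ways. Nqo1, Gclc and Cat passed the test against the empty vector in Sap-1 knockdown cells and also differed between the knockdowns, while Sod2 passed in Sap-1 knockdown cells but not between the knockdowns. Sod1 and Gclm passed in no comparison. Among all genes tested, 15.8% were called higher and 13.9% lower in Sap-1 knockdown cells, and 13.4% higher and 10.2% lower in Net knockdown cells, at a limma adjusted p under 0.05, which makes 29.7% and 23.6% in either direction. All 10 genes lay above the median level of all genes, 7.81, where calls were more frequent. With genes below that median left out before the fit, 29.8% were called higher and 24.7% lower in Sap-1 knockdown cells, and 26.5% higher and 20.9% lower in Net knockdown cells. The 4 calls of 10 in Net knockdown cells stood near the 47.4% called among genes at or above the median level. The 8 of 10 in Sap-1 knockdown cells stood above the 54.5% called there, with no test of that excess. By mean level Sod3 lay at percentile 68.9 of all genes, and the others of the 10 at 87.2 to 97.7. The shares cover every gene at or above the median, so they are not matched to the level of the 10 genes. The median log2 fold change of the 10 genes was 0.19 in Sap-1 knockdown cells and 0.08 in Net knockdown cells, beside -0.02 and 0.00 over all genes. Both comparisons share the empty vector arrays.

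**Figure D1:**
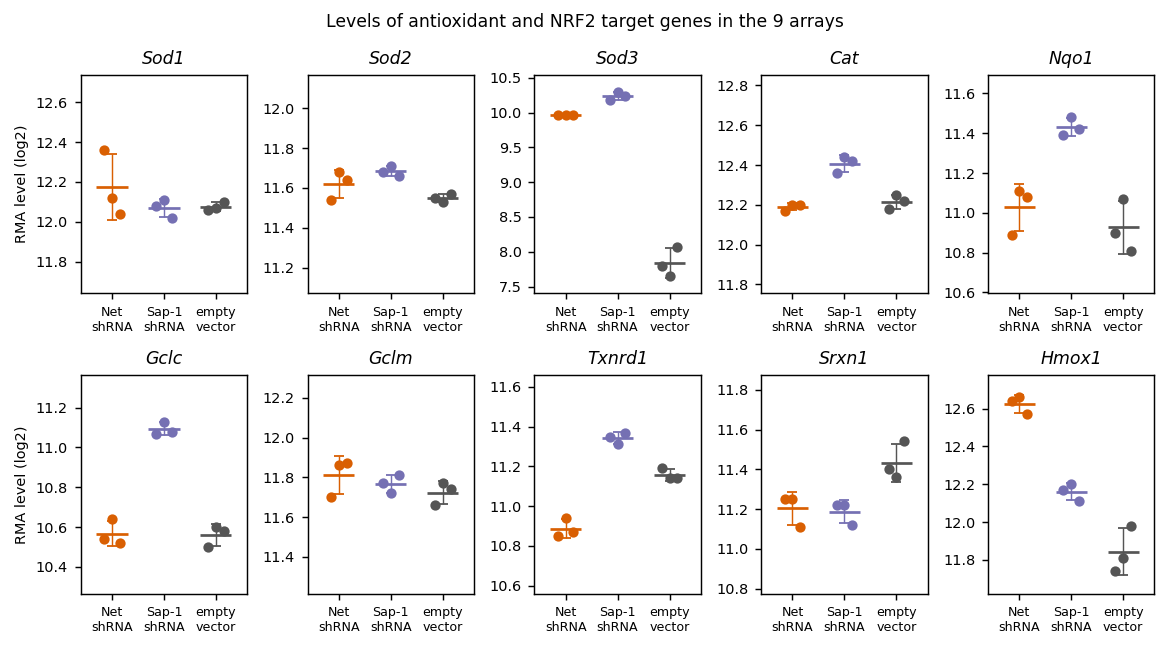
RMA levels on the log2 scale (y axis, a separate range for each gene) of the 10 genes in the Net shRNA, Sap-1 shRNA and empty vector arrays. Points are arrays, and bars are the mean and SD of 3. Sod3 is the only panel where the empty vector arrays lie more than 1 log2 unit below both knockdowns, and Txnrd1 has its empty vector arrays between the knockdowns.

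The superoxide dismutases differed among themselves. Sod3 encodes the secreted copper and zinc enzyme of the extracellular space, which attaches to heparan sulfate in the matrix. Its level was 9.97 in each of the 3 Net knockdown arrays, 10.18, 10.30 and 10.24 in Sap-1 knockdown arrays, and 7.80, 7.65 and 8.07 in empty vector arrays. No knockdown array came within the range of the empty vector arrays. The difference from the empty vector was 2.13 in Net knockdown cells (SE 0.09, limma adjusted p = 3.4e-08) and 2.40 in Sap-1 knockdown cells (SE 0.09, adjusted p = 5.7e-09), or 4.39 and 5.28 times the control level. Such folds were rare, since 2.56% of genes in Net knockdown cells and 4.46% in Sap-1 knockdown cells were called with 1.5-fold or more. The identical values in Net knockdown arrays are as deposited, a tie that 328 genes shared in that group, and their SD of 0 does not measure the replicate spread.

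Sod3 also differed between the knockdowns, with 9.97 in Net knockdown cells and 10.24 ± 0.06 in Sap-1 knockdown cells (SD, n = 3), a difference of -0.27 (SE 0.09, limma adjusted p = 0.037). That call was weak. It was lost without any of the 6 Net or Sap-1 knockdown arrays (adjusted p = 0.056 to 0.12, differences of -0.30 to -0.24) and without empty vector replicate 1 (adjusted p = 0.053). It was also lost when the median deviation of the 50 nearest expressed neighbours on the chromosome was taken off each gene, at -0.20 (adjusted p = 0.089).

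Sod2, the manganese enzyme of mitochondria, was at 11.54, 11.68 and 11.64 in Net knockdown arrays, 11.68, 11.71 and 11.66 in Sap-1 knockdown arrays, and 11.55, 11.53 and 11.57 in empty vector arrays. The Sap-1 knockdown arrays all lay above the empty vector arrays, and the Net knockdown arrays overlapped both. The change in Sap-1 knockdown cells was small, 0.13 (SE 0.04, limma adjusted p = 0.040). It lost its call without any empty vector array, without Sap-1 knockdown replicate 1 or 2, and without Net knockdown replicate 3, with adjusted p of 0.055 to 0.13 at 0.12 to 0.15. In Net knockdown cells the difference was 0.07 (95% interval -0.02 to 0.17, adjusted p = 0.30). With the neighbours' median taken off it passed in both knockdowns, at 0.16 in Net knockdown cells (adjusted p = 0.025) and 0.22 in Sap-1 knockdown cells (adjusted p = 0.0031).

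Sod1 encodes the copper and zinc enzyme of the cytosol. It measured 12.36, 12.12 and 12.04 in Net knockdown arrays, 12.08, 12.11 and 12.02 in Sap-1 knockdown arrays, and 12.06, 12.07 and 12.10 in empty vector arrays. The groups overlapped, and Net knockdown replicate 1 stood above all other arrays. Against the empty vector the difference was 0.10 in Net knockdown cells (95% interval -0.05 to 0.26) and 0.00 in Sap-1 knockdown cells (-0.16 to 0.15). These intervals do not reach the size of the change in Sod3.

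Catalase, the peroxisomal enzyme that splits hydrogen peroxide, rose in Sap-1 knockdown cells. Cat was at 12.17, 12.20 and 12.20 in Net knockdown arrays, 12.36, 12.44 and 12.42 in Sap-1 knockdown arrays, and 12.18, 12.25 and 12.22 in empty vector arrays. The Sap-1 knockdown arrays stood apart from all others. The difference from the empty vector was 0.19 (SE 0.04, limma adjusted p = 0.0035), a level 14.1% higher. In Net knockdown cells it was -0.03 (95% interval -0.11 to 0.06), and between Net and Sap-1 knockdown cells it was -0.22 (SE 0.04, adjusted p = 0.0016).

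Of the subunit genes of glutathione synthesis, Gclc changed and Gclm passed no test. Gclc and Gclm encode the catalytic and the modifier subunit of glutamate-cysteine ligase, the rate-limiting enzyme of the pathway. Gclc was at 10.54, 10.64 and 10.52 in Net knockdown arrays, 11.07, 11.13 and 11.08 in Sap-1 knockdown arrays, and 10.50, 10.60 and 10.58 in empty vector arrays. It rose in Sap-1 knockdown cells by 0.54 (SE 0.05, limma adjusted p = 6.6e-06), which is 45.2% above control. In Net knockdown cells it lay at 0.01 (95% interval -0.09 to 0.11), and the knockdowns differed by -0.53 (Net minus Sap-1 knockdown, SE 0.05, adjusted p = 7.6e-06). Gclm was at 11.70, 11.86 and 11.87 in Net knockdown arrays, 11.77, 11.72 and 11.81 in Sap-1 knockdown arrays, and 11.66, 11.77 and 11.74 in empty vector arrays, with all groups overlapping. Its difference from the empty vector was 0.09 in Net knockdown cells (95% interval -0.03 to 0.21) and 0.04 in Sap-1 knockdown cells (-0.07 to 0.16). With the neighbours' median taken off, Gclm passed in Sap-1 knockdown cells at 0.14 (adjusted p = 0.046). The difference between the responses of the subunits was not tested.

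Nqo1, the gene of a quinone reductase and a standard readout of NRF2 activity, followed the pattern of Gclc. It was at 10.89, 11.11 and 11.08 in Net knockdown arrays, 11.39, 11.48 and 11.42 in Sap-1 knockdown arrays, and 10.90, 11.07 and 10.81 in empty vector arrays. The Sap-1 knockdown arrays lay above all others, while the Net knockdown and empty vector arrays overlapped. Nqo1 rose by 0.51 in Sap-1 knockdown cells (SE 0.07, limma adjusted p = 3e-04), a level 42.1% higher than control. The difference was 0.10 in Net knockdown cells (95% interval -0.06 to 0.27) and -0.40 between Net and Sap-1 knockdown cells (SE 0.07, adjusted p = 0.0016).

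Txnrd1 and Srxn1 act on thiol oxidation. Txnrd1 encodes the cytosolic thioredoxin reductase, a selenoenzyme that keeps thioredoxin reduced, and its promoter window with an element core is printed above. It was at 10.85, 10.94 and 10.87 in Net knockdown arrays, 11.35, 11.31 and 11.37 in Sap-1 knockdown arrays, and 11.19, 11.14 and 11.14 in empty vector arrays. The 3 groups did not overlap. Against the empty vector it fell by 0.27 in Net knockdown cells (SE 0.04, limma adjusted p = 0.00058) and rose by 0.19 in Sap-1 knockdown cells (SE 0.04, adjusted p = 0.0043). The knockdowns differed by -0.46 (Net minus Sap-1 knockdown, SE 0.04, adjusted p = 7.4e-06).

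Srxn1 encodes sulfiredoxin, which restores peroxiredoxins that have been oxidised too far, and its window above holds the AP-1 letters besides the element core. Srxn1 was at 11.25, 11.25 and 11.11 in Net knockdown arrays, 11.22, 11.22 and 11.12 in Sap-1 knockdown arrays, and 11.40, 11.36 and 11.54 in empty vector arrays. All knockdown arrays lay below all empty vector arrays. The difference was -0.23 in Net knockdown cells (SE 0.06, limma adjusted p = 0.016) and -0.24 in Sap-1 knockdown cells (SE 0.06, adjusted p = 0.0091). The call in Net knockdown cells was lost without empty vector replicate 3 (-0.18, adjusted p = 0.065) and without Net knockdown replicate 3 (-0.18, adjusted p = 0.069). Between Net and Sap-1 knockdown cells Srxn1 differed by 0.01 (95% interval -0.12 to 0.15).

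Hmox1 rose in both knockdowns, and more in Net knockdown cells. It encodes haem oxygenase 1, which breaks haem down to biliverdin, carbon monoxide and iron and is a known target of both NRF2 and BACH1. Its level was 12.64, 12.66 and 12.57 in Net knockdown arrays, 12.17, 12.20 and 12.11 in Sap-1 knockdown arrays, and 11.74, 11.81 and 11.98 in empty vector arrays. The groups did not overlap and stood in that order. Hmox1 rose by 0.78 in Net knockdown cells (SE 0.06, limma adjusted p = 4.6e-06), 72.2% above control, and by 0.32 in Sap-1 knockdown cells (SE 0.06, adjusted p = 0.0018), 24.7% above control. The knockdowns differed by 0.47 (Net minus Sap-1 knockdown, SE 0.06, adjusted p = 0.00013). With the neighbours' median taken off, Hmox1 kept its calls at smaller sizes. The rise was then 0.58 in Net knockdown cells and 0.24 in Sap-1 knockdown cells, and the direct difference 0.34.

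**Figure D2:**
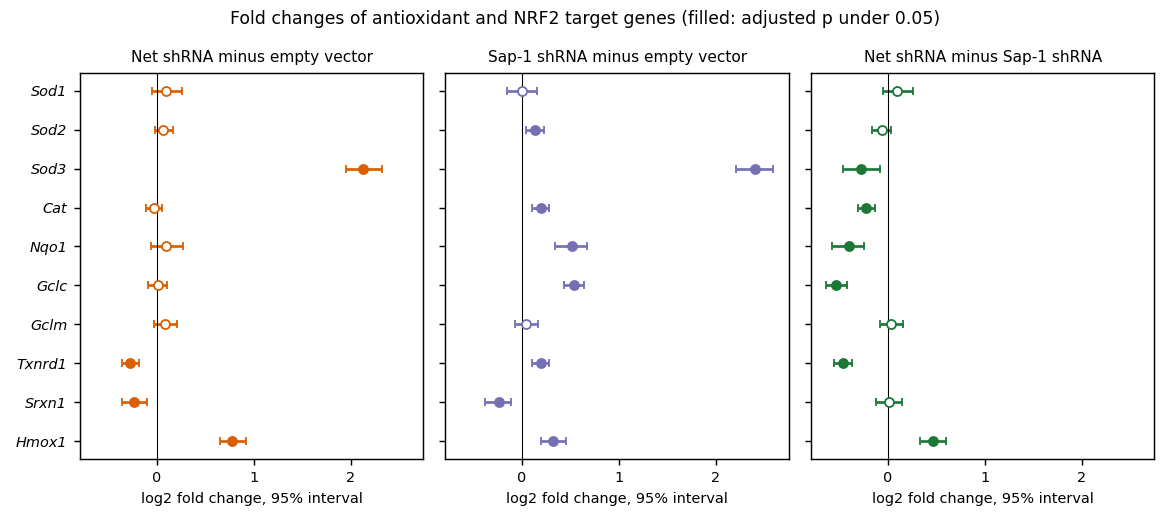
Log2 fold changes (x axis, the same range in each panel) of the 10 genes with 95% intervals from limma, for Net shRNA minus empty vector, Sap-1 shRNA minus empty vector and Net minus Sap-1 shRNA. Filled points passed at an adjusted p under 0.05. Sod3 lies above 2 in both knockdowns, and in the direct comparison only Hmox1 passed on the side higher in Net shRNA cells.

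Set directly against Sap-1 knockdown cells, Net knockdown cells had a lower level of 5 of the 10 genes and a higher level of 1. Txnrd1, Gclc, Nqo1, Cat and Sod3 were lower in Net knockdown cells, and Hmox1 was higher. Over all genes tested 13.3% were lower and 14.2% higher, together 27.5%, and among genes at or above the median level 25.8% were lower and 26.2% higher, together 52%. None of the 6 reached 1.5-fold, which 4.64% of all genes did. The arrays of the knockdowns did not overlap for 6 of the 10 genes, the same 6 that were called, beside 37.4% of all genes. Against the empty vector, arrays did not overlap for 4 of the 10 genes in Net knockdown cells (34.3% of all genes) and 8 of 10 in Sap-1 knockdown cells (41% of all genes).

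The order of the group means was Sap-1 knockdown, Net knockdown and empty vector from high to low for Sod2, Sod3, Nqo1 and Gclc. For Nqo1, Gclc and Sod2 the Net knockdown and empty vector neighbours in that order did not differ beyond their spread. For Cat and Txnrd1 the order was Sap-1 knockdown, empty vector and Net knockdown, and the lower neighbours differed for Txnrd1 only. Hmox1 had the order Net knockdown, Sap-1 knockdown and empty vector with each step past the test. Srxn1 had the empty vector highest, and the knockdowns below it did not differ beyond their spread.

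The regulators of NRF2 were measured on the same arrays. Nfe2l2, the NRF2 gene itself, was at 11.73, 11.77 and 11.74 in Net knockdown arrays, 11.80, 11.84 and 11.93 in Sap-1 knockdown arrays, and 11.79, 11.90 and 11.81 in empty vector arrays. It passed in neither knockdown, with -0.09 in Net knockdown cells (SE 0.05, limma adjusted p = 0.24) and 0.02 in Sap-1 knockdown cells (adjusted p = 0.77). Keap1 passed in neither as well, at 0.07 in Net knockdown cells (adjusted p = 0.30) and 0.04 in Sap-1 knockdown cells (adjusted p = 0.50). NRF2 is regulated mainly through its protein, which was not measured.

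Bach1, the gene of the repressor that shares sites with NRF2, was lower in both knockdowns. It was at 10.04, 9.95 and 9.93 in Net knockdown arrays, 9.68, 9.60 and 9.72 in Sap-1 knockdown arrays, and 10.08, 10.13 and 10.28 in empty vector arrays. The difference from the empty vector was -0.19 in Net knockdown cells (SE 0.06, limma adjusted p = 0.039) and -0.50 in Sap-1 knockdown cells (SE 0.06, adjusted p = 6.7e-05). The call in Net knockdown cells was lost without empty vector replicate 2 or 3, Net knockdown replicate 2 or 3 or Sap-1 knockdown replicate 1 (-0.21 to -0.13, adjusted p = 0.058 to 0.14), and with only the 6 arrays compared in the fit (-0.19, adjusted p = 0.071). The knockdowns differed in Bach1 by 0.31 (Net minus Sap-1 knockdown, adjusted p = 0.0021). Its mean was highest in empty vector cells, where that of Hmox1 was lowest, and lowest in Sap-1 knockdown cells. A relation of Bach1 to Hmox1 was not tested. Bach2, a relative of Bach1, fell by 0.74 in Net knockdown cells (SE 0.08, adjusted p = 6.9e-05).

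Of 15 genes of NRF2 and its regulators, 1 rose and 3 fell in Net knockdown cells, and 3 rose and 3 fell in Sap-1 knockdown cells. Calls in either direction took 23.6% of all genes in Net knockdown and 29.7% in Sap-1 knockdown cells. At or above the median level they took 47.4% and 54.5%. Neither these counts nor those of the lists below were tested against such shares. The ubiquitin ligase scaffold gene Cul3 fell by 0.22 (SE 0.04) and Dpp3, whose product can bind KEAP1, rose by 0.24 (SE 0.05) in Net knockdown cells. In Sap-1 knockdown cells Btrc, a gene of another ligase that targets NRF2, fell by 0.30 (SE 0.04) and Rbx1, the ring finger partner of CUL3, rose by 0.23 (SE 0.05). With the neighbours' median taken off, Cul3 lost its call in Net knockdown cells (-0.10, adjusted p = 0.15) and Rbx1 in Sap-1 knockdown cells (0.12, adjusted p = 0.060). The median fold was -0.07 in Net knockdown and 0.02 in Sap-1 knockdown cells.

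**Figure D3:**
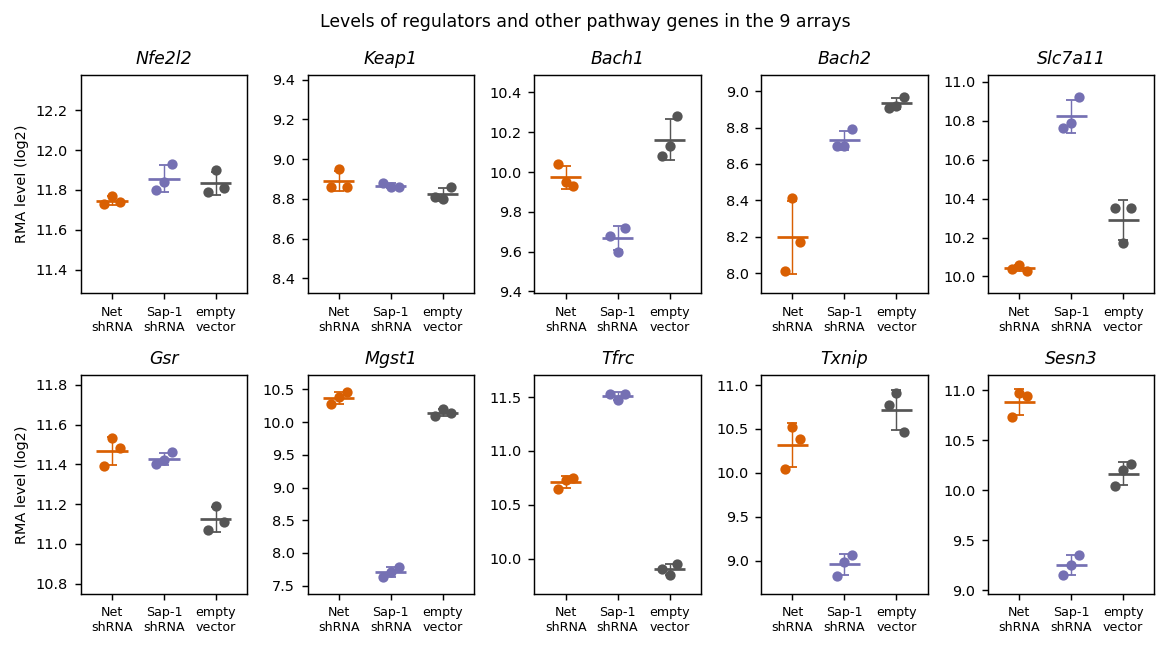
RMA levels on the log2 scale (y axis, a separate range for each gene) of the regulators Nfe2l2, Keap1, Bach1 and Bach2 and of 6 other pathway genes in Net shRNA, Sap-1 shRNA and empty vector arrays. Points are arrays, and bars are the mean and SD of 3. Mgst1 lies between 7.64 and 7.78 in Sap-1 shRNA arrays and above 10 in all other arrays, and Tfrc rises in both knockdowns.

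Around Gclc and Gclm, 30 other genes of glutathione synthesis and use were measured. Of these 9 rose and 3 fell in Net knockdown cells, and 11 rose and 6 fell in Sap-1 knockdown cells. The shares called were 23.6% and 29.7% of all genes, and 47.4% and 54.5% of genes at or above the median level. The cystine transporter gene Slc7a11, which supplies cysteine for glutathione, was at 10.04, 10.06 and 10.03 in Net knockdown arrays, 10.76, 10.79 and 10.92 in Sap-1 knockdown arrays, and 10.35, 10.17 and 10.35 in empty vector arrays. Like Txnrd1 it fell in Net knockdown cells, by 0.25 (SE 0.06, limma adjusted p = 0.0083), and rose in Sap-1 knockdown cells, by 0.54 (SE 0.06, adjusted p = 3.2e-05). Glutathione reductase, Gsr, rose in both, by 0.34 in Net knockdown cells (SE 0.05) and 0.30 in Sap-1 knockdown cells (SE 0.05). Gsr was at -0.01 in Net knockdown cells (adjusted p = 0.89) once the median of its neighbours was subtracted. Mgst1, a glutathione transferase of membranes, had the largest difference of the list. It was at 10.28, 10.38 and 10.46 in Net knockdown arrays, 7.64, 7.71 and 7.78 in Sap-1 knockdown arrays, and 10.09, 10.20 and 10.14 in empty vector arrays, a change of -2.44 in Sap-1 knockdown cells (SE 0.06, adjusted p = 2.4e-10). Gsta3 rose by 1.35 in Sap-1 knockdown cells and fell by 0.42 in Net knockdown cells (-0.23 with the neighbours' median taken off), Gstm5 fell by 0.47 in Sap-1 knockdown cells and Gstt1 rose by 0.63 in Net knockdown cells. Gsta3 and Gstm5 belong to transferase families of close copies and are uncertain, since cross-hybridisation was not tested.

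Beside Txnrd1 and Srxn1, 15 genes of the thioredoxin and peroxiredoxin system were measured. In Net knockdown cells 3 were higher and 3 lower, and in Sap-1 knockdown cells 6 were higher and 3 lower. The shares called were 23.6% and 29.7% of all genes, and 47.4% and 54.5% of genes at or above the median level. Txnip, the gene of a thioredoxin inhibitor, was at 10.04, 10.52 and 10.39 in Net knockdown arrays, 8.83, 8.98 and 9.06 in Sap-1 knockdown arrays, and 10.77, 10.91 and 10.46 in empty vector arrays. Its change in Sap-1 knockdown cells was -1.76 (SE 0.13, limma adjusted p = 1.9e-06). The sestrin gene Sesn3 rose by 0.72 in Net knockdown cells (SE 0.08) and fell by 0.91 in Sap-1 knockdown cells (SE 0.08), while Sesn1 fell by 0.33 in Net and by 0.58 in Sap-1 knockdown cells. Prdx3, the mitochondrial peroxiredoxin gene, rose by 0.29 in Net knockdown cells (SE 0.05, adjusted p = 0.00098).

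NADPH drives the reductases encoded by Nqo1, Txnrd1 and Gsr. Of 8 measured genes of NADPH supply, 1 rose and 2 fell in Net knockdown cells, and 3 rose and 1 fell in Sap-1 knockdown cells. Among genes at or above the median level 47.4% and 54.5% were called there in either direction. Pgd, a dehydrogenase gene of the pentose phosphate pathway, fell by 0.47 in Net knockdown cells (SE 0.05, limma adjusted p = 3.5e-05) and rose by 0.21 in Sap-1 knockdown cells (SE 0.05, adjusted p = 0.0049). Taldo1, the transaldolase gene of that pathway, rose by 0.67 in Sap-1 knockdown cells (SE 0.07), and the malic enzyme gene Me1 by 0.18 (SE 0.05). With the neighbours' median taken off the rise of Pgd lost its call (0.01, adjusted p = 0.90), and that of Me1 without empty vector replicate 1 or 2 or Sap-1 knockdown replicate 3 (0.14 to 0.16, adjusted p = 0.054 to 0.056). Net knockdown cells were lower than Sap-1 knockdown cells in 5 of these 8 genes and higher in 0. Over all genes 13.3% were lower and 14.2% higher, and at or above the median level, where all 8 lie, 25.8% and 26.2%. Other lists varied in direction. Higher and lower counts were 6 and 0 of 13 for metal and selenium supply, 10 and 7 of 30 for glutathione and 0 and 4 of 10 for haem and iron. They were 4 and 5 of 15 for both the regulators and the thioredoxin list, 3 and 7 of 17 for detoxification and 2 and 0 of 10 for oxidant sources.

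Hmox1 releases iron from haem. Of 10 other genes of haem and iron handling 4 rose in Net knockdown cells and 5 in Sap-1 knockdown cells, the others passing no test. Genes called higher made 13.4% and 15.8% of all genes, and 26.5% and 29.8% of genes at or above the median level. The transferrin receptor gene Tfrc, which brings iron into the cell, was at 10.65, 10.73 and 10.75 in Net knockdown arrays, 11.53, 11.47 and 11.53 in Sap-1 knockdown arrays, and 9.90, 9.85 and 9.95 in empty vector arrays. It rose by 0.81 in Net knockdown cells (SE 0.05, limma adjusted p = 4.1e-07) and by 1.61 in Sap-1 knockdown cells (SE 0.05, adjusted p = 1.1e-09). Hmox1 rose more in Net knockdown cells instead. Slc40a1, the iron exporter gene, rose by 0.67 in Sap-1 knockdown cells (SE 0.11), and the biliverdin reductase gene Blvrb by 0.23 in Net knockdown cells (SE 0.05). Hfe, whose product binds the transferrin receptor, rose by 0.27 in Net knockdown and 0.44 in Sap-1 knockdown cells.

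Of 17 detoxification and efflux genes, 7 rose and 2 fell in Net knockdown cells, and 9 rose and 1 fell in Sap-1 knockdown cells. The shares called were 23.6% and 29.7% of all genes, and 47.4% and 54.5% of genes at or above the median level. The list median was 0.22 in Sap-1 knockdown cells and 0.08 in Net knockdown cells. Ephx1, an epoxide hydrolase gene, rose by 0.72 in Net knockdown cells (SE 0.05) and 0.50 in Sap-1 knockdown cells (SE 0.05), the second being 0.79 with the neighbours' median taken off. The efflux pump gene Abcc4 rose to 9.66, 9.74 and 9.68 in Sap-1 knockdown arrays, against 8.44, 8.51 and 8.54 in empty vector arrays (limma adjusted p = 9.2e-09). Abcc1, which exports glutathione conjugates, rose there by 0.63 (SE 0.06). Aldh3a1, an aldehyde dehydrogenase gene, rose by 1.28 in Net knockdown cells (SE 0.10), while the aldehyde oxidase gene Aox1 fell there by 0.89 (SE 0.05).

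The metals and selenium of these enzymes are supplied by other genes, of which 13 were measured. In Net knockdown cells 5 rose, and in Sap-1 knockdown cells 2 rose and 4 fell. The shares called were 23.6% and 29.7% of all genes, and 47.4% and 54.5% of genes at or above the median level. Atox1, a copper chaperone gene, rose by 0.52 in Net knockdown cells (SE 0.05, limma adjusted p = 2.5e-05) and by 0.28 in Sap-1 knockdown cells (SE 0.05, adjusted p = 0.0013). The metallothionein gene Mt1 rose by 0.40 in Net knockdown cells (SE 0.07). Eefsec, the elongation factor gene for selenocysteine, rose by 0.26 in Net knockdown cells and fell by 0.17 in Sap-1 knockdown cells, while Sephs2, which makes selenophosphate, rose by 0.32 in Sap-1 knockdown cells. The fall of Eefsec lost its call (-0.09, adjusted p = 0.17) once the median of its neighbours was subtracted. Of 10 genes of oxidant sources, Cyba, a subunit gene of NADPH oxidases, rose by 0.44 in Net knockdown cells (SE 0.05, adjusted p = 0.00013) and Xdh, the xanthine dehydrogenase gene, fell by 0.21 there. Cyba was at 0.29 and Xdh lost its call (-0.14, adjusted p = 0.093) after the same subtraction. Xdh also lost it without Net knockdown replicate 1 or 3, Sap-1 knockdown replicate 1 or 2 or empty vector replicate 1 or 2 (-0.23 to -0.14, adjusted p = 0.059 to 0.15), and with only the 6 arrays compared in the fit (-0.21, adjusted p = 0.084). In Sap-1 knockdown cells the oxidant source genes gave 0 calls by limma and 0 at an unadjusted p under 0.05. With the neighbours' median taken off, Cyba passed there as lower (-0.16, adjusted p = 0.027). The mean level of this list was 7.56 to 7.6 in Sap-1 knockdown arrays and 7.62 to 7.64 in empty vector arrays. That is below the median level of all genes, 7.81, above which calls were more frequent.

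**Figure D4:**
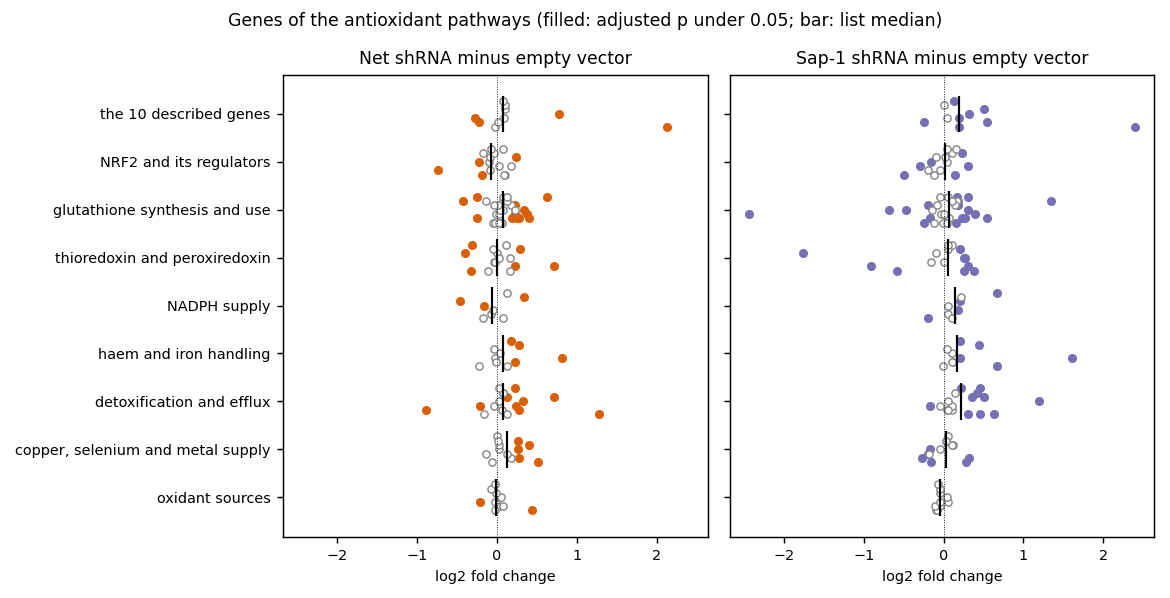
Log2 fold changes against the empty vector (x axis, the same range in both panels) of the 10 described genes and of 8 lists of related genes, in Net shRNA cells (left) and Sap-1 shRNA cells (right). Each point is a gene, filled where the adjusted p was under 0.05, and the bar is the list median. Medians run from -0.07 to 0.13 in Net shRNA cells and from -0.05 to 0.22 in Sap-1 shRNA cells. The highest in Sap-1 shRNA cells are 0.22 for detoxification, 0.19 for the 10 genes, 0.17 for haem and iron and 0.14 for NADPH supply.

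Markers of other cell types that express some of these enzymes strongly were examined beside these values. The 10 macrophage markers had mean levels of 6.86 to 6.89 in Net knockdown arrays, 6.86 to 6.91 in Sap-1 knockdown arrays and 6.71 to 6.73 in empty vector arrays. Of these, 3 rose in Net knockdown cells, and 2 rose and 1 fell in Sap-1 knockdown cells. Over all genes 13.4% rose and 10.2% fell in Net knockdown cells, and 15.8% rose and 13.9% fell in Sap-1 knockdown cells. Lyz2, uncertain because of a close copy, rose by 0.81 in Net and by 1.81 in Sap-1 knockdown cells, and Cd14 by 0.41 in Net and by 0.21 in Sap-1 knockdown cells. Cd68 rose by 0.23 in Net knockdown cells and fell by 0.23 in Sap-1 knockdown cells. The rise of Cd68 lost its call without empty vector replicate 3 (0.22, adjusted p = 0.053) and after the neighbours' median was subtracted (0.09, adjusted p = 0.29). The other 7, Adgre1, Ptprc and Csf1r among them, passed in neither. Endothelial markers averaged 6.98 to 7.07, 6.89 to 6.93 and 6.72 to 6.78 in the same order of groups, with 2 of 9 higher in Net knockdown cells and 2 higher and 1 lower in Sap-1 knockdown cells. Epithelial markers averaged 7.13 to 7.30, 7.04 to 7.12 and 7.02 to 7.16, with 2 of 8 and 1 of 8 higher. The part of these differences in the levels of the 10 genes was not tested, and in bulk RNA fewer cells of a type cannot be told apart from less RNA per cell.

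For the 2 genes with the largest changes, the genes with the most similar profiles over the 9 arrays were found, each profile being centred on its empty vector mean. Sod3 was closest to Agmo, with a root mean square difference of 0.23 on the log2 scale, and to Tnfsf18 (0.28). Agmo changed by 2.40 in Net knockdown and 2.36 in Sap-1 knockdown cells, and Tnfsf18 by 2.10 in Net and 1.96 in Sap-1 knockdown cells. Hmox1 was closest to Nkx2-5 and Tmem192, both at 0.06. Nkx2-5 changed by 0.71 in Net knockdown and 0.30 in Sap-1 knockdown cells, and Tmem192 by 0.78 in Net and 0.27 in Sap-1 knockdown cells. These distances describe likeness over 9 arrays in 3 groups and carry no test.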

How the data were processed

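Messenger RNA levels of 9 arrays, 3 per group, were used. Per the submitters' processing notes, the authors ran RMA in Affymetrix Expression Console and deposited log2 levels of probe sets. RMA subtracts background, equalises the arrays and summarises probes, which compresses folds at low levels and removes shifts common to most genes. The 28815 probe sets ranged from 3.24 to 14.47, with array medians of 7.47 to 7.54. Arrays have no read depth, and their number limits the precision. The table holds no detection calls.

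Of the probe sets, 21780 had 1 gene symbol in the platform annotation, 1605 several and 5430 none. Symbols were updated by Entrez ID in a RefSeq table of GRCm38.p6, which held 21689 of the former. The brightest probe set was kept per gene, leaving 19935 genes. The array's own genome build was not given in the sources used here.

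Groups were compared with limma 3.58.1 in R 4.3.3 (lmFit, eBayes) in 1 fit over 9 arrays, with 6 residual and 4.7 prior degrees of freedom. P-values were adjusted by Benjamini-Hochberg over the 19935 genes of each comparison, and calls made under 0.05. On simulated data with 19935 genes, 50 genes were given each size of change in the Net comparison. A 1.1-fold change was found for 8% of them, a 1.2-fold change for 56%, a 1.5-fold change for 94% and a 2-fold change for 100%, beside 3 false calls. Only these genes were changed in the simulation, while 4714 were called in the real Net comparison. The adjustment was therefore stricter in the simulation, and its shares may not hold for the data.

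The 10 genes and the lists were chosen with earlier results of these data known. The naming rule took the 10 genes, Elk3, Elk4, Nfe2l2, Keap1 and Bach1. It also took up to 3 called genes per list and comparison with the smallest adjusted p. The 2 genes most alike for the 2 members with the largest change were added. Pgls, Nnt, Atp7a, Fech, Msra and Noxo1 met the list rule but are named only here, without values. The cell type markers Pdgfra, Lyz2, Cd14, Cd68, Adgre1, Ptprc and Csf1r and the list genes Glrx2, Gsta4 and Gstm2 were chosen after their values were seen. Alternatives were a replicate block, an intensity trend, the 6 arrays compared, 3 normalizations, a filter on dim genes, probe sets averaged per gene, array weights, the median of 50 neighbouring genes taken off, each array left out, an adjusted p under 0.01 and 1.5-fold.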

Additional observations from a re-analysis of the deposited data

Results flagged for a closer look

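Txnrd1 passed the test in opposite directions in the knockdowns, lower than the empty vector in Net knockdown cells and higher in Sap-1 knockdown cells, and the direct difference was -0.46 (Net minus Sap-1 knockdown, limma adjusted p = 7.4e-06). It kept its sign and its call in all 3 comparisons under each alternative but the 1.5-fold limit, which it did not reach, with a direct difference of -0.49 to -0.37 over the alternatives other than a left-out array and -0.49 to -0.44 with an array left out. Of 118 other list genes measured, 9 also passed in opposite directions, 6 named by the rule and 3 named here after their values were seen. The direct difference (Net minus Sap-1 knockdown) was 2.67 for Mgst1, 1.63 for Sesn3 and 0.42 for Eefsec, which were higher in Net and lower in Sap-1 knockdown cells. It was -1.78 for Gsta3, -0.79 for Slc7a11 and -0.68 for Pgd, which were lower in Net and higher in Sap-1 knockdown cells. Opposite calls were lost for Pgd and Eefsec with the neighbours' median taken off, as given with their values, and for Mgst1 in Net knockdown cells without Net knockdown replicate 3 (0.18, adjusted p = 0.055) or empty vector replicate 1 (0.20, adjusted p = 0.054). The other 3 were Gstm2 (0.44) and Glrx2 (0.42), higher in Net and lower in Sap-1 knockdown cells, and Gsta4 (-0.42), lower in Net and higher in Sap-1 knockdown cells. Each of these 3 lost its call in Sap-1 knockdown cells once the median of its neighbours was subtracted (adjusted p = 0.10 to 0.26), Gstm2 also without Sap-1 knockdown replicate 2 (-0.14, adjusted p = 0.054), and Gsta4 without Sap-1 knockdown replicate 1 or 2 or empty vector replicate 1 or 3 (0.14 to 0.16, adjusted p = 0.059 to 0.072). Gstm2 and Gsta4 have close copies and are uncertain. The macrophage marker Cd68 differed by 0.47, higher in Net and lower in Sap-1 knockdown cells. The comparisons with the empty vector share its 3 arrays.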

How the results depend on the processing

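For the 10 genes, 297 fold changes under settings other than a left-out array stayed on their side of the threshold, 2 gained a call and 1 lost it. All 3 changed with the neighbours' median taken off and are given with Sod2, Gclm and Sod3. These settings include the fit of only the 6 arrays compared. With an array left out 255 stayed and 15 lost their call, all of them for Sod2 in Sap-1 knockdown cells, Srxn1 in Net knockdown cells and Sod3 between the knockdowns. No called fold change of the 10 genes turned its sign. The number of the 10 genes called ran from 3 to 4 in Net knockdown cells, 7 to 8 in Sap-1 knockdown cells and 5 to 6 between them with an array left out. Of 9 pairs of arrays with the same replicate number in different groups, 5 had deviations correlated above 0.1 (range -0.11 to 0.36), against -0.43 to 0.30 for pairs of different number. The 3 pairs of replicate 1 were all above 0.1, and those of replicates 2 and 3 were mixed, so pairing by number was neither established nor excluded and was not used. With the replicate block the numbers of the 10 genes called were 4, 8 and 6, as without it, and the numbers over all genes 4985, 6263 and 5752, so it changed no call of the 10 genes. Requiring 1.5-fold left 2 of the 10 genes in Net knockdown cells, 1 in Sap-1 knockdown cells and 0 between the knockdowns, where limma called 6 without a fold limit and 6 had an unadjusted p under 0.05. Over all genes it left 510, 890 and 924 of the 4714, 5921 and 5480 called. The same was counted for the 58 other genes given by the naming rule or named after their values were seen. Under settings other than a left-out array 1659 values stayed on their side, 29 lost and 22 gained a call. With an array left out 1500 stayed, 57 lost and 9 gained one. With the neighbours' median taken off, 3 values turned their sign, -0.01 for Gsr in Net knockdown cells, and between the knockdowns -0.21 for Gsr and -0.08 for Ephx1. The 3 arrays per group limit detection of small changes.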
